A study of Mus musculus with 12 samples.

Results

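The matrix metalloproteases (MMPs), the ADAMTS proteases and the tissue inhibitors of metalloproteases (TIMPs) were followed by RNA sequencing in mouse mammary tumours treated with MBQ-167, paclitaxel or both. The genes taken were the protein-coding ones whose symbol is Mmp, Timp or Adamts plus a number with an optional letter, leaving out Mmp8 and Mmp9. This gave 43 of the 46078 genes in the count table, of which 21596 are annotated as protein-coding: 20 Mmp genes, 4 Timp genes and 19 Adamts genes. Mmp1a was not taken because the annotation calls it a polymorphic pseudogene, and its highest count in any library was 15.

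All tumours grew in BALB/c mice, with the genotype given as WT, from 300000 luciferase-expressing cells of 4T1, a mouse line of metastatic mammary carcinoma, placed in mammary fat pad number 4. Treatment ran for 2 weeks from day 14, and the mice were killed on day 28. The 4 groups of 3 libraries were vehicle, MBQ-167 (an inhibitor of the GTPases Rac and Cdc42) at 100 mg/kg 5 times a week, paclitaxel (a microtubule-stabilising drug) at 5 mg/kg 1 time a week, and both drugs given together (combination). All groups, vehicle included, thus carry the same luciferase line in the same host. The labels call the libraries biological replicates without saying whether each is a separate mouse. A p-value here thus speaks of the spread among libraries, which may not be that among mice. Cells were injected on 2 occasions, and since no label assigns a library to either, occasion and treatment cannot be told apart.

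MMPs are zinc endopeptidases, mostly secreted as inactive precursors, that cut collagens, elastin and other proteins of the extracellular matrix. TIMPs bind and block their active sites. At the cell surface Mmp14 and Timp2 also form a complex that captures and activates the Mmp2 precursor, so Timp2 is both an inhibitor and a cofactor. ADAMTS proteases are secreted relatives that cut proteoglycans such as versican and aggrecan, trim procollagens or act on other matrix proteins. In breast tumours much of this protease expression is known to come from fibroblasts and myeloid cells as well as from carcinoma cells. A tumour library sums all these cells, so fewer cells of a type and less RNA per cell cannot be told apart.

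Total counts ran from 11540557 to 17001562 per library, and 52.67% to 71.54% of them fell in protein-coding genes. This share was 52.67% to 58.58% in vehicle, 55.3% to 60.67% in MBQ-167, 58.12% to 71.54% in paclitaxel and 54.27% to 68.21% in combination libraries. Each drug group overlapped vehicle, and no test of the share was run. The highest values were in paclitaxel library 1 (71.54%) and combination library 3 (68.21%). A group of 3 features on chromosome 17 took 31.64% to 37.54% of vehicle counts and 17.11% to 32.08% of paclitaxel counts. The lowest value was that of paclitaxel library 1, with 27.87% and 32.08% in the other paclitaxel libraries. The range was 30.13% to 36.81% in MBQ-167 and 19.88% to 37.43% in combination libraries. The TMM factors were 0.826 to 0.904 in vehicle and 0.933 to 1.22 in the drug libraries, without overlap. The fit of protein-coding genes only is given beside the calls it bears on. Markers of carcinoma epithelium, fibroblasts, macrophages and endothelium were detected in every group, with summed levels of 1069 to 3239, 857.9 to 1466, 654.5 to 2278 and 183.4 to 288.5 CPM, which are counts scaled to library size. Vehicle library 3 stood apart on several of these lists. It had the highest sum of the 10 neutrophil markers (1293 CPM, against 315.6 and 317.9 in the other vehicle libraries) and the lowest sum of the 10 macrophage markers (654.5 CPM, against 1771 and 2278). Its sum of the 10 fibroblast markers was 1432 CPM, against 895.8 and 981, and combination library 3 was at 1466 CPM against 857.9 and 878.8 in the other combination libraries. Paclitaxel library 2 had the highest sum of adipocyte markers (115.7 CPM, against 30.94 and 13.99 in the other paclitaxel libraries). It was also highest for B and plasma cell markers (64.39 CPM, against 0.723 and 0.982).

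A gene was tested where it passed the edgeR filter on low counts, which 32 of the 43 genes did (74.4%, against 39.6% of all genes in the table). They were 14 Mmp, 3 Timp and 15 Adamts genes. The other 11 never exceeded 19 counts in a library. Among these were Mmp20, an enamel protease, with 2 counts in all 12 libraries together, Mmp7 (matrilysin) with 4, Mmp27 with 7, Adamts18 with 12, Timp4 with 14 and Adamts19 with 15. Mmp1b, an interstitial collagenase, had 24 counts in total, Adamts13, the protease of von Willebrand factor, had 41, and Mmp21, Adamts3 and Mmp16 had 59, 60 and 62. These 11 genes were not tested, since differences in them were not detectable at this depth. Adamts20 and Adamts17 passed the filter with only 62 and 91 counts in total.

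Levels of different genes were compared as mean CPM per kilobase of exon over the 12 libraries. Timp2 had the highest level at 101, followed by Timp1 at 53.2 and Mmp14, the membrane-type protease that cuts fibrillar collagen at the cell surface, at 44.5. The collagenase Mmp13 was at 28.4, the stromelysin Mmp3 at 22.1, the gelatinase Mmp2 at 16.8 and the macrophage metalloelastase Mmp12 at 13.1. The highest Adamts genes were lower, with Adamts4 at 9.0, Adamts1 at 8.11 and Adamts14 at 6.64. Timp3 was at 6.03. The sum over the 4 Timp genes exceeded the sum over the 20 Mmp genes, taken without Mmp8 and Mmp9, in vehicle libraries 1 and 2, with ratios of 1.16 and 1.40, but not in vehicle library 3, at 0.868. In the 9 drug libraries the ratio lay between 0.967 and 1.07, inside the range of the vehicle libraries.

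**Figure D1:**
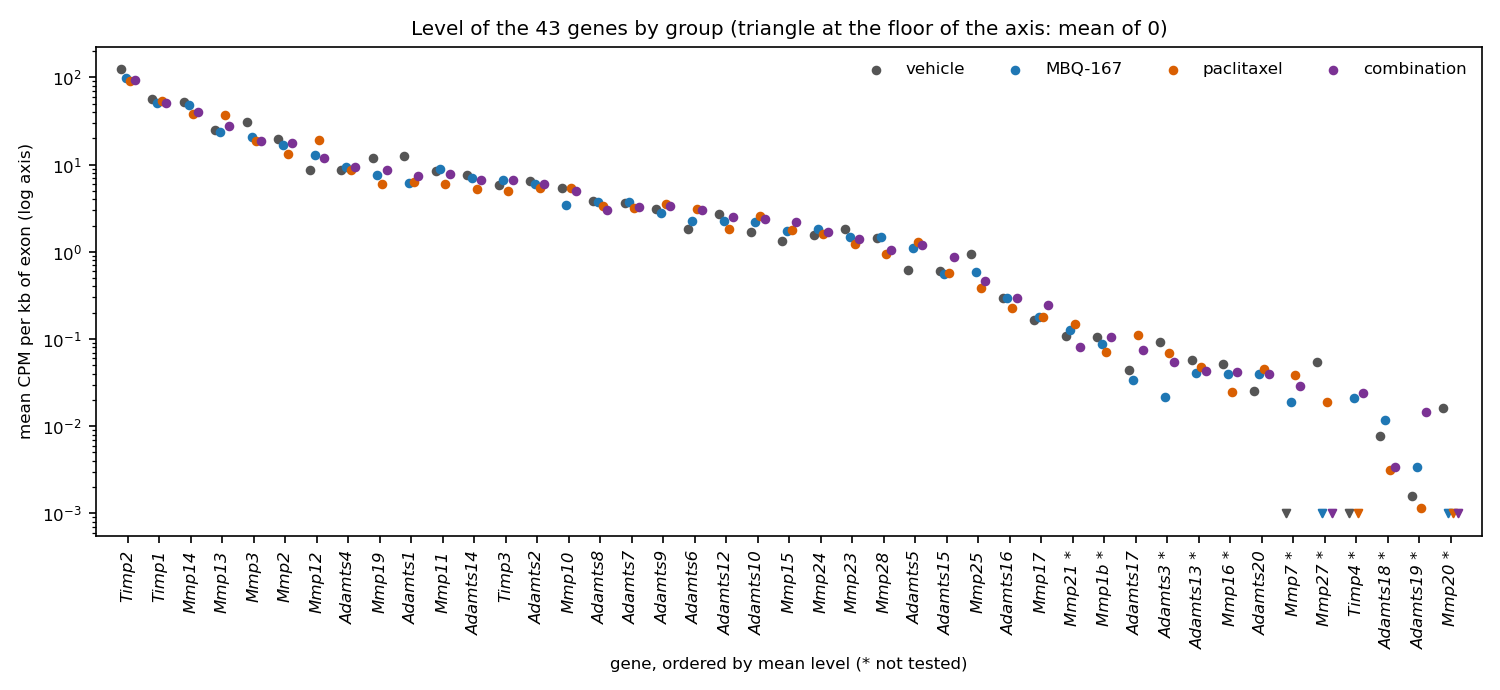
Mean level of each of the 43 genes in CPM per kilobase of exon on a log axis, with 1 point per group (mean of 3 libraries), ordered by the mean over all libraries; a triangle at the bottom stands for a group mean of 0 and an asterisk for a gene not tested. Timp2, Timp1 and Mmp14 lead at means of 101, 53.2 and 44.5.

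Paclitaxel against vehicle was the only comparison in which any of these genes passed the test, an adjusted p under 0.05 by the quasi-likelihood test of edgeR over all 18252 genes tested. Mmp12 and Adamts6 rose, and Mmp14, Timp2, Mmp19 and Adamts1 fell. These are 6 of 32 tested genes (18.8%), beside a background of 5.66% of all genes tested; 2 were higher, with 3.17% in the background, and 4 were lower, with 2.49%. At an unadjusted p under 0.05 there were 12 of 32, with 22.6% in the background. The median log2 fold change of the 32 genes was -0.17, with 11 above and 21 below 0, and that of all genes was -0.002.

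Mmp14, on chromosome 14 (GRCm38, 54431612 to 54445364), had CPM values of 299, 326 and 318 in vehicle libraries 1 to 3 and of 233, 190 and 248 in paclitaxel libraries 1 to 3. Every paclitaxel library was below every vehicle library. The group means were 314 ± 13.5 and 224 ± 30.3 (SD, n = 3), and the log2 fold change was -0.49 ± 0.12 (SE; edgeR adjusted p = 0.0302). Timp2, on chromosome 11 (118301069 to 118355740), had 499, 471 and 479 CPM in vehicle and 373, 290 and 387 CPM in paclitaxel libraries. The groups again did not overlap, and paclitaxel library 2 was the lowest for both genes. Its log2 fold change was -0.46 ± 0.12 (edgeR adjusted p = 0.0349). The target of this pair, Mmp2, did not pass the test. Its CPM values were 48.3, 40.2 and 113 in vehicle and 41.1, 55.8 and 36.0 in paclitaxel libraries, with a log2 fold change of -0.60 ± 0.33 (edgeR adjusted p = 0.295). Vehicle library 3, which also had the highest fibroblast marker sum among the vehicle libraries, held the high Mmp2 value, and the groups overlapped.

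Mmp19, a secreted MMP that cuts basement membrane and cartilage proteins, lies on chromosome 10 (128790910 to 128800824). It had 38.6, 34.7 and 51.3 CPM in vehicle and 20.2, 21.3 and 21.8 CPM in paclitaxel libraries. The paclitaxel libraries were close together and all below the vehicle libraries, and the log2 fold change was -0.98 ± 0.21 (edgeR adjusted p = 0.0172). A share of 22.33% of its exon bases (789 bases) lies opposite exons of Tmem198b, which had 25.0 ± 3.12 CPM in vehicle and 15.5 ± 0.302 CPM in paclitaxel libraries (SD, n = 3). Whether counting used the strand is not given in the sources used here, so reads from the shared bases cannot be assigned. Of the 6 genes, only Mmp19 and Mmp12 share exon bases with another gene in the annotation; for Mmp12 it is 2.17% of its exons, opposite Mmp1b.

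Adamts1, which cuts versican and aggrecan, lies on chromosome 16 (85793827 to 85803113). Its CPM values were 67.0, 44.0 and 88.9 in vehicle and 39.1, 32.1 and 29.6 in paclitaxel libraries. The groups did not overlap, though vehicle library 2 and paclitaxel library 1 were close. The log2 fold change was -0.99 ± 0.23 (edgeR adjusted p = 0.0247). Without vehicle library 3, the library with the high neutrophil and fibroblast markers, it was -0.73 (edgeR adjusted p = 0.0579).

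Mmp12, on chromosome 9 (7344381 to 7369499), had 86.6, 60.4 and 39.9 CPM in vehicle and 157, 106 and 150 CPM in paclitaxel libraries. All paclitaxel libraries were above all vehicle libraries, and vehicle library 3 was the lowest of the 12. The log2 fold change was 1.15 ± 0.24 (edgeR adjusted p = 0.0165), and without vehicle library 3 it was 0.91 and still passed. The summed macrophage markers were at 1771, 2278 and 654.5 CPM in vehicle libraries 1 to 3, where library 3 was also the lowest of the 12. They were at 1420, 917.7 and 1315 CPM in paclitaxel libraries 1 to 3. By edgeR, DESeq2 and limma voom 0 of the 10 macrophage markers passed, and 9 had fold changes below 0. An unadjusted p under 0.05 was seen in 1, beside 22.6% of all genes tested. The part of macrophages in the Mmp12 values was not tested.

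Adamts6, an ADAMTS protease related to Adamts10 and linked to fibrillin microfibrils, lies on chromosome 13 (104287835 to 104496695). It had 15.6, 10.2 and 17.02 CPM in vehicle and 26.2, 25.4 and 20.2 CPM in paclitaxel libraries. The groups did not overlap, and the log2 fold change was 0.75 ± 0.20 (edgeR adjusted p = 0.0441). Its relative Adamts10 had a log2 fold change of 0.59 ± 0.19 and did not pass (edgeR adjusted p = 0.0863). Adamts10 CPM values were 10.8, 16.8 and 14.7 in vehicle and 26.4, 21.0 and 16.2 in paclitaxel libraries, so the groups overlapped.

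**Figure D2:**
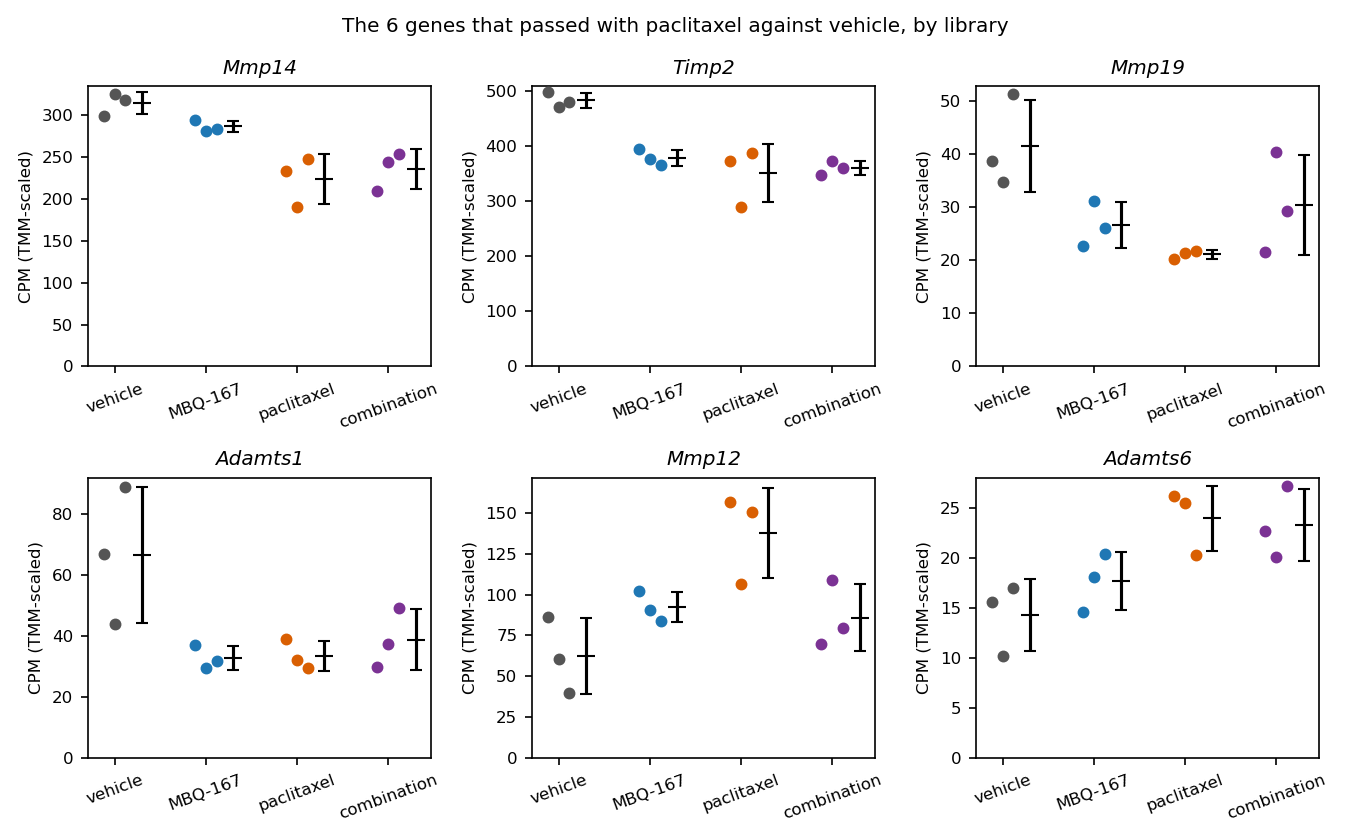
CPM of the 6 genes that passed the test with paclitaxel, in each library of the 4 groups, with a tick at each group mean and error bars of 1 SD (n = 3). In these TMM-scaled values Mmp14 and Timp2 lie lower in all 9 drug libraries than in all 3 vehicle libraries, while Mmp12 is highest in the paclitaxel group.

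These 6 calls held to different degrees when libraries or the model were changed. All 6 passed in the fit of protein-coding genes only. Mmp12 passed in 5 of the 6 fits that left out a vehicle or paclitaxel library, Mmp19 in 4, and Adamts1, Mmp14, Timp2 and Adamts6 in 2 each. Adamts6 passed in 3 of all 12 fits that left out a library of any group. Without paclitaxel library 1 only Adamts1 passed, and without paclitaxel library 2 only Mmp12. When only the vehicle and paclitaxel libraries were fitted, only Mmp19 passed (edgeR adjusted p = 0.0362). Transcript GC content differed among the 6, lowest in Mmp12 (40.3%) and Adamts6, which rose, and 49.0% to 54.3% in the others, beside a median of 49.4% over all genes tested. With a per-library GC offset only Mmp19 (-0.98, edgeR adjusted p = 0.0311) and Adamts1 (-0.97, edgeR adjusted p = 0.0399) passed. Mmp12 was then at 0.71 on the log2 scale (adjusted p = 0.175 by edgeR), Mmp14 at -0.39 (adjusted p = 0.11), Timp2 at -0.37 (adjusted p = 0.128) and Adamts6 at 0.49 (adjusted p = 0.187).

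None of the other Timp genes passed with paclitaxel. Timp1, a secreted inhibitor of many MMPs, had 48.5, 51.1 and 50.7 CPM in vehicle and 40.8, 59.2 and 44.3 CPM in paclitaxel libraries. Timp3, which binds to the matrix and also inhibits several ADAMTS proteases, had 40.2, 43.6 and 59.0 CPM in vehicle and 42.5, 49.6 and 30.7 CPM in paclitaxel libraries. Both overlapped between the groups, with log2 fold changes of -0.06 ± 0.20 and -0.22 ± 0.17. Timp3 shares 21.28% of its exon bases with Syn3 on the opposite strand.

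Among the other membrane-type MMPs, Mmp25, which is anchored to the surface of leukocytes, had 2.65, 2.93 and 9.45 CPM in vehicle and 1.40, 3.48 and 1.17 CPM in paclitaxel libraries. The high vehicle value was again in library 3, where the neutrophil markers were highest. The log2 fold change was -1.35 ± 0.51 (edgeR adjusted p = 0.129). Neutrophil markers summed to 315.6 to 1293 CPM in vehicle and 88.96 to 179.8 CPM in paclitaxel libraries. By edgeR 9 of the 10 passed as lower, beside 2.49% of all genes tested. Mmp15, Mmp17 and Mmp24 had log2 fold changes of 0.41 ± 0.27, 0.12 ± 0.50 and 0.04 ± 0.22, and none passed.

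The remaining Adamts genes lay on both sides of 0. Adamts5, an aggrecanase, had 5.44, 7.59 and 6.89 CPM in vehicle and 10.3, 25.3 and 6.81 CPM in paclitaxel libraries. Its value in paclitaxel library 2 was the highest of the 12, and the log2 fold change of 1.08 ± 0.47 did not pass (edgeR adjusted p = 0.192). Adamts1 and Adamts5 lie next to each other on chromosome 16, and Adamts5 was above 0 where Adamts1 was below. Adamts14, a procollagen N-proteinase, had no overlap between the groups, with 36.4, 50.3 and 32.8 CPM in vehicle against 20.7, 29.3 and 31.0 CPM. Its log2 fold change was -0.56 ± 0.25 (edgeR adjusted p = 0.199). Its relative Adamts2 was at -0.28 ± 0.24, and Adamts12 at -0.54 ± 0.34, with the highest of all 12 libraries in vehicle library 3 for both. Adamts4, Adamts7, Adamts8, Adamts9, Adamts15 and Adamts16 lay between -0.37 and 0.21. Adamts17 and Adamts20, with few counts, were at 1.24 ± 0.69 and 0.71 ± 1.38. Of the other secreted MMPs, Mmp23 was at -0.54 ± 0.41 and Mmp28 at -0.60 ± 0.66, and neither passed.

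Counted by lack of overlap, 6 of the 32 genes were lower in every paclitaxel library than in every vehicle library (12.1% of all genes tested) and 2 were higher (13.2%). The 6 were the 4 that passed as lower plus Mmp11 and Adamts14. Mmp11, the stromelysin typical of tumour fibroblasts, had 24.2, 23.7 and 23.2 CPM in vehicle and 15.6, 13.7 and 20.6 CPM in paclitaxel libraries. Its log2 fold change was -0.51 ± 0.21 (edgeR adjusted p = 0.168).

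With MBQ-167 against vehicle none of the 32 genes passed the edgeR test, beside 0.0931% of all genes. By DESeq2 1 passed, Adamts1, beside 329 of all genes, and by limma voom 0. There were 4 at an unadjusted p under 0.05, which is 12.5% of the 32, beside 12.9% of all genes. The median log2 fold change was -0.10, with 14 above and 18 below 0, beside 0.001 over all genes. Adamts1 had the smallest p, with 37.2, 29.6 and 31.7 CPM in MBQ-167 libraries 1 to 3, all below the vehicle libraries. Its log2 fold change was -1.02 ± 0.23 (edgeR adjusted p = 0.14; DESeq2 adjusted p = 0.00494).

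Mmp19 had 22.6, 31.2 and 26.1 CPM in the MBQ-167 libraries, also all below the vehicle libraries (-0.64 on the log2 scale, edgeR adjusted p = 0.21). Timp2 had 395, 376 and 365 CPM there, with no overlap with the 471 to 499 CPM of vehicle, and a log2 fold change of -0.35 ± 0.12 (edgeR adjusted p = 0.226). For Mmp14 the values were 294, 282 and 284 CPM, just below the lowest vehicle value of 299 CPM, at -0.13 on the log2 scale (edgeR adjusted p = 0.688). These 4 genes were the ones lower in every MBQ-167 library than in every vehicle library (8.79% of all genes tested). The 2 without overlap in the other direction (8.54% of all genes) were Adamts5, at 0.86 ± 0.47, and Adamts10, at 0.38 ± 0.20. The 2 remaining Timp genes and the other highly expressed proteases overlapped with vehicle. Timp1 had 36.8, 52.7 and 45.8 CPM and Timp3 had 49.4, 58.2 and 54.7 CPM in the MBQ-167 libraries. Mmp12, near the middle of its range, had 102, 90.5 and 84.0 CPM, at 0.57 on the log2 scale (edgeR adjusted p = 0.341). Mmp2 had 49.1, 62.5 and 56.7 CPM, Mmp13 had 69.3, 69.5 and 50.9 CPM and Mmp3 had 30.7, 38.0 and 42.9 CPM. None of these 3 reached the high value of vehicle library 3. Neutrophil markers summed to 151.3 to 204.4 CPM in the MBQ-167 libraries, below all vehicle libraries, with all 10 at an unadjusted p under 0.05, 0 past the edgeR or limma voom threshold and 2 past that of DESeq2. Their part in the values above was not tested.

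With the combination against vehicle, again none of the 32 genes passed the edgeR test, beside 1.84% of all genes. By DESeq2 4 passed, which were Adamts1, Adamts6, Mmp14 and Timp2, beside 916 of all genes, and by limma voom 0. At an unadjusted p under 0.05 there were 8 (25% of the 32, beside 18.4% of all genes). The median log2 fold change was -0.10, with 15 above and 17 below 0. Without overlap with vehicle 2 genes were lower (9.86% of all genes) and 4 higher (11%). The 4 were Adamts6, Adamts10, Adamts15 and Mmp15, and the 2 lower were Timp2 and Mmp14. Timp2 had 348, 372 and 361 CPM in combination libraries 1 to 3, all below vehicle, and Mmp14 had 209, 244 and 253 CPM, also all below. Their log2 fold changes were -0.42 (edgeR adjusted p = 0.0781) and -0.42 ± 0.12 (edgeR adjusted p = 0.0884). Adamts6 had 22.7, 20.1 and 27.1 CPM, all above vehicle, at 0.71 (edgeR adjusted p = 0.0841). Timp2 and Mmp14 were also the 2 genes that were lower in all 9 drug libraries than in all 3 vehicle libraries (3.95% of all genes tested). None was higher in all 9 (3.42%). This separation rests on the TMM factors, and on total counts alone both genes overlapped. Mmp14 had 4110 of 13947914 counts in MBQ-167 library 1 and 4118 of 14119192 in vehicle library 2. Timp2 had 7749 of 17001562 counts in paclitaxel library 1 and 7097 of 16419510 in vehicle library 3.

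The other genes that passed with paclitaxel differed more within the combination group. Adamts1 had 29.7, 37.5 and 49.4 CPM, so that library 3 overlapped the vehicle range, at -0.77 on the log2 scale (edgeR adjusted p = 0.0939). Mmp19 had 21.6, 40.5 and 29.2 CPM and overlapped too (-0.45, edgeR adjusted p = 0.266). Mmp12 had 69.5, 109 and 79.6 CPM and overlapped vehicle library 1 (0.47, edgeR adjusted p = 0.321). Timp1 had 31.6, 46.5 and 58.3 CPM and Timp3 had 50.5, 56.2 and 55.1 CPM, both across the vehicle range. Mmp3 had 27.9, 39.2 and 34.1 CPM, at -0.70 ± 0.30 (edgeR adjusted p = 0.226). Mmp2 had 43.7, 50.9 and 82.0 CPM and Mmp13 had 68.8, 58.6 and 94.3 CPM, with overlap for each. Combination library 3, the one with the highest fibroblast marker sum, had the highest value of the combination group for Mmp2, Mmp13, Adamts2 (75.4 CPM), Adamts12 (40.5 CPM) and Adamts5 (23.1 CPM). The part of the fibroblast markers in these values was not tested.

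**Figure D3:**
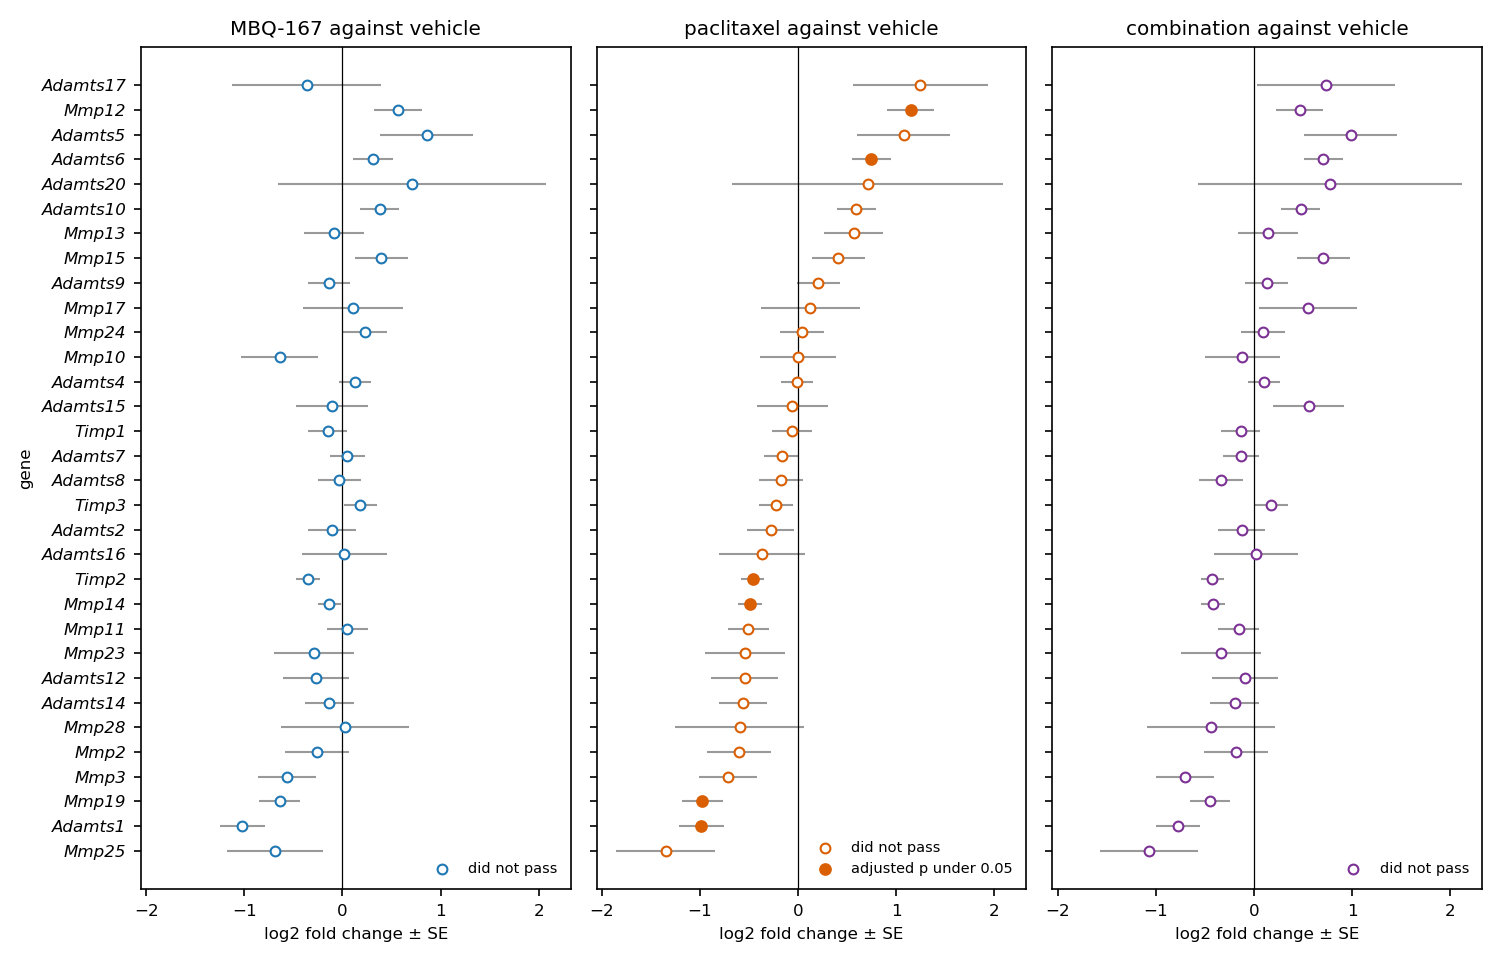
Log2 fold change against vehicle of each tested gene for MBQ-167, paclitaxel and the combination, with error bars of 1 SE from the edgeR fit and filled points for an adjusted p under 0.05. The 6 filled points are all in the paclitaxel panel, and the 3 comparisons share the same vehicle libraries.

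The treated groups were also compared with each other. Paclitaxel against MBQ-167, the combination against MBQ-167 and the combination against paclitaxel had 0 of 32 genes past the edgeR threshold, beside 0% of all genes in each. DESeq2 and limma voom also gave 0 of the 32 in each. At an unadjusted p under 0.05 there were 7 (6.88% of all genes), 1 (5.15%) and 3 (2.36%). Mmp14 had the smallest p between paclitaxel and MBQ-167, at -0.36 on the log2 scale (edgeR adjusted p = 0.584), with no overlap between 190 to 248 and 282 to 294 CPM. It is among 4 genes lower without overlap in this comparison (6.71% of all genes tested), while 2 were higher (8.63%). Mmp11 and Mmp12 followed, at -0.56 and 0.58. It was also the gene with the smallest p between the combination and MBQ-167, at -0.28 (edgeR adjusted p = 0.937). Adamts6 and Adamts15 followed there, at 0.40 and 0.67. Mmp12 was lower in the combination than with paclitaxel alone by a log2 fold change of -0.68, with overlapping libraries (edgeR adjusted p = 0.99998). Mmp19 and Timp3 followed in that comparison, at 0.53 and 0.40.

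The interaction, which is 0 where the effects of both drugs add on the log2 scale, passed for 0 of 32 genes by edgeR (0.0603% of all genes) and by limma voom. By DESeq2 it passed for 3, Adamts1, Mmp12 and Mmp19, beside 147 of all genes. At an unadjusted p under 0.05 there were 4, beside 9.83% of all genes. The values were 1.24 for Adamts1 (edgeR adjusted p = 0.226; DESeq2 adjusted p = 0.0301), 1.17 for Mmp19 (edgeR adjusted p = 0.219; DESeq2 adjusted p = 0.0242) and -1.25 for Mmp12 (edgeR adjusted p = 0.241; DESeq2 adjusted p = 0.0301). A positive value for a gene that was lower with each drug means that the combination was less far below vehicle than the sum of the single drugs. In the edgeR test of any difference among the 4 groups 0 of 32 passed, beside 1.38% of all genes. DESeq2 gave 6, beside 1220 of all genes, and limma voom gave 0. By edgeR 7 had an unadjusted p under 0.05 (15.9% of all genes). Adamts1 had the lowest value in that edgeR test (adjusted p = 0.0583).

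A run of 8 of the 43 genes lies within 427.1 kilobases of chromosome 9 (GRCm38, 7272514 to 7699585), in the order Mmp13, Mmp12, Mmp1b, Mmp3, Mmp10, Mmp27, Mmp20 and Mmp7. Promoters of this cluster are known for binding sites of AP-1, the dimer of Fos and Jun proteins that drives MMP transcription after growth factor and stress signals. The AP-1 motif TGAGTCA, or its reverse complement TGACTCA, was searched in RefSeq promoter windows of 300 bases, 250 before and 50 after each start, on both strands. A window was at hand for 30 of the 43 genes. The motif was in 6 of them, all of this cluster (Mmp3, Mmp10, Mmp12, Mmp13, Mmp1b and Mmp7), beside 5.95% of the 27025 genes with a window. The motif is a match of letters and not a measured binding site. The windows of the 4 tested genes of the cluster, all on the plus strand (GRCm38.p6), are shown with the motif in capitals, since they carry the feature that these neighbours share.
Mmp13, chr9:7272264-7272563: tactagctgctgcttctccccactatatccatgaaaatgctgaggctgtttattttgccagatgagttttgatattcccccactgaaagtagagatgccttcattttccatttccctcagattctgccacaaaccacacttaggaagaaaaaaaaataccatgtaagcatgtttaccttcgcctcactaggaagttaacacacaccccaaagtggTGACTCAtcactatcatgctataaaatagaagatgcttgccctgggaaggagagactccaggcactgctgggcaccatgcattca
Mmp12, chr9:7347124-7347423: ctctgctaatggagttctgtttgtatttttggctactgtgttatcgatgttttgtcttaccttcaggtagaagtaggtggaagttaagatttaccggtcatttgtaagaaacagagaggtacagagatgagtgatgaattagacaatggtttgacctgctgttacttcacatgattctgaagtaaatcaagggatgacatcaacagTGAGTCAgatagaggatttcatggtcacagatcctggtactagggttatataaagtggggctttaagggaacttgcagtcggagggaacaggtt
Mmp3, chr9:7445572-7445871: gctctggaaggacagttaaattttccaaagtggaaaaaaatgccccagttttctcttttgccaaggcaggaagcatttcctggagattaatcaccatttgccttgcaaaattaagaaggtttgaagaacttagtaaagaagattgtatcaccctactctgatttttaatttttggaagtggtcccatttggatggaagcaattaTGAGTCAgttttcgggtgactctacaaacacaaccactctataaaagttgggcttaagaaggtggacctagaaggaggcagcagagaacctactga
Mmp10, chr9:7502092-7502391: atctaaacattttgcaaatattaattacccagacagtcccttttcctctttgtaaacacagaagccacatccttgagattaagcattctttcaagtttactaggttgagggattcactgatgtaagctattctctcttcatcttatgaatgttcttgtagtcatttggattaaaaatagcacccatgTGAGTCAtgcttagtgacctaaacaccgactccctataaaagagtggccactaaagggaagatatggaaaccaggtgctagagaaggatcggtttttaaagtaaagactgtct

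The motif begins 35 bases before the start in Mmp13, on the minus strand, 44 before in Mmp12, 46 before in Mmp3 and 63 before in Mmp10. Mmp12 has another RefSeq window further upstream without the motif.

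Of the 4 tested neighbours only Mmp12 passed with paclitaxel. Mmp13, the main collagenase of the mouse, had 61.0, 33.3 and 106 CPM in vehicle and 98.5, 87.5 and 112 CPM in paclitaxel libraries. Vehicle library 3 overlapped the paclitaxel range, and the log2 fold change was 0.57 ± 0.30 (edgeR adjusted p = 0.288). Mmp3, a stromelysin that cuts many matrix proteins and activates other MMPs, had 58.3, 26.1 and 80.2 CPM in vehicle and 27.9, 41.8 and 31.0 CPM in paclitaxel libraries. The groups overlapped because vehicle library 2 was the lowest of the 12. Its log2 fold change was -0.71 ± 0.30 (edgeR adjusted p = 0.17). Mmp10, a related stromelysin, had 9.30, 4.35 and 14.0 CPM in vehicle and 14.0, 6.08 and 7.36 CPM in paclitaxel libraries, with a log2 fold change of -0.00 ± 0.38. Mmp12, the neighbour that passed, was at 1.15 ± 0.24.

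**Figure D4:**
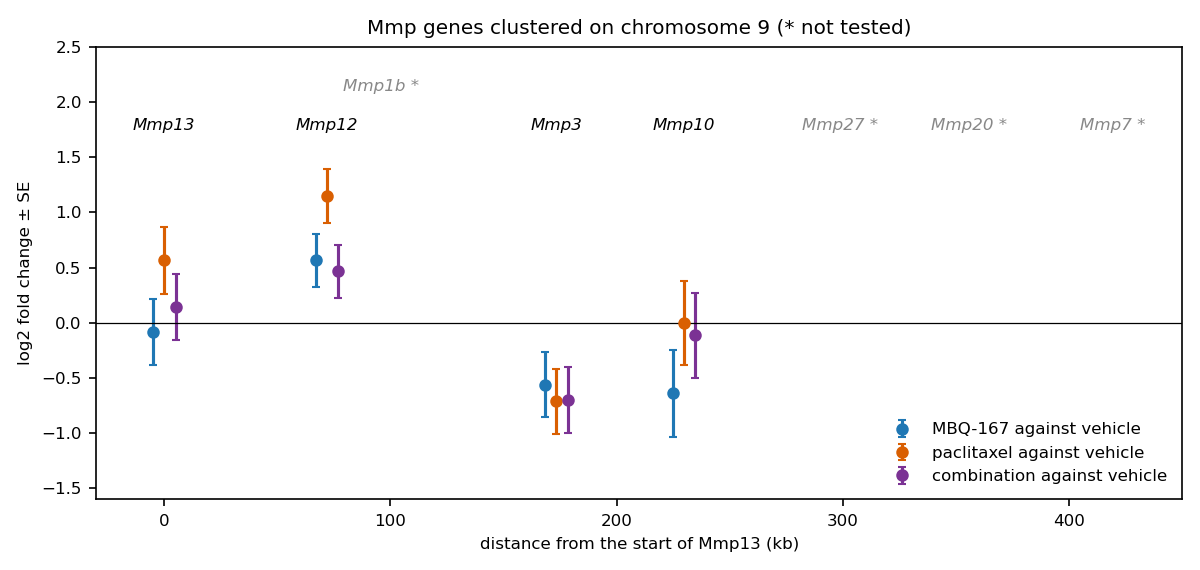
Log2 fold change against vehicle of the 4 tested genes of the chromosome 9 cluster, plotted at their distance in kilobases from the start of Mmp13, with error bars of 1 SE and a colour for each drug group; untested genes appear by name with an asterisk. With paclitaxel Mmp12, which passed the test, lies at 1.15; Mmp13, Mmp3 and Mmp10, which did not pass, lie at 0.57, -0.71 and -0.00.

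Several genes of AP-1 subunits passed the test as lower. Of the 7 genes listed, 3 passed as lower with MBQ-167, 4 with paclitaxel and 4 with the combination, and none passed as higher. Of all genes tested, 0.0931%, 5.66% and 1.84% passed in these comparisons, in either direction. Fos had log2 fold changes of -2.38, -2.44 and -1.95 in this order, and Fosb had -3.16, -3.43 and -1.77. Jund passed with each single drug (-1.24 and -1.41), Jun with paclitaxel and the combination (-0.95 and -0.77) and Junb with the combination (-0.51). In the interaction Fos, Fosb and Jund passed with positive values of 2.88, 4.81 and 1.90, beside 0.0603% of all genes. Of the 4 tested protease genes with the motif, Mmp12 and Mmp13 lay above 0 with paclitaxel and Mmp3 below. Mmp10 had means of 9.21 CPM in vehicle and 9.16 CPM in paclitaxel libraries. Only Mmp12 passed. The part of AP-1 in the values of the protease and inhibitor genes was not tested.

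Some other genes around these proteases were lower with paclitaxel or the combination, where 5.66% and 1.84% of all genes tested passed. With paclitaxel, of 8 tested genes for other inhibitors, inducers and clearance, 2 were lower: Bsg (basigin, which induces MMPs in stromal cells) at -0.60 (edgeR adjusted p = 0.0101) and Lrp1, the endocytic receptor that clears several MMPs and TIMP complexes, at -0.58 (edgeR adjusted p = 0.049). Of 9 ADAMTS-like proteins and procollagen C-proteinases, 3 were lower by edgeR, while DESeq2 called 4 and limma voom 1. Those by edgeR were Pcolce, the enhancer of procollagen C-proteinase (-0.61, edgeR adjusted p = 0.0314), Bmp1, that proteinase itself (-0.61, edgeR adjusted p = 0.0476), and Adamtsl4 (-0.69, edgeR adjusted p = 0.0429). None of 9 activators and genes of the plasminogen system, 8 ADAM sheddases or 13 matrix substrates passed with paclitaxel by edgeR or limma voom. At an unadjusted p under 0.05 there were 3, 1 and 0 of them, beside 22.6% of all genes, and DESeq2 called 1, 1 and 0. With MBQ-167 no gene of these 5 lists passed by edgeR or limma voom, and DESeq2 called 1. An unadjusted p under 0.05 was seen in 2, beside 12.9% of all genes. With the combination Bsg (-0.55, edgeR adjusted p = 0.0298) and Plaur, the urokinase receptor (-0.67, edgeR adjusted p = 0.0413), were lower. The numbers at an unadjusted p under 0.05, with the combination and then with paclitaxel, stand beside 18.4% and 22.6% of all genes. Per list they were 3 and 3 for the activators and 2 and 3 for the inhibitors and inducers. They were 1 and 1 for the sheddases, 5 and 5 for the ADAMTS-like list and 0 and 0 for the substrates. In the direct comparison of the combination with paclitaxel no gene of any list passed, as 0% of all genes did by edgeR.

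Of the cell type lists, neutrophil markers had 9 of 10 lower with paclitaxel, 8 of 10 with the combination and, as above, 0 of 10 with MBQ-167 by edgeR. By limma voom the paclitaxel and combination counts were 6 and 3, and by DESeq2 9 and 8. Of all genes tested, 5.66% passed by edgeR with paclitaxel, 1.84% with the combination and 0.0931% with MBQ-167. Erythroid markers summed to 256.1 to 264.7 CPM in vehicle, 43.98 to 107.3 in MBQ-167, 14.54 to 106.3 in paclitaxel and 32.46 to 67.3 in combination libraries. All 9 drug libraries were below all vehicle libraries, a pattern held by 3.95% of the single genes tested. By edgeR 2 of 5 erythroid markers were lower with paclitaxel, 3 with the combination and 0 with MBQ-167. With MBQ-167 4 of them had an unadjusted p under 0.05 (12.9% of all genes), DESeq2 called 1 and limma voom 0. The median log2 fold change there was -1.72. Fibroblast markers had 0 of 10 past the test by edgeR, DESeq2 or limma voom in each of the 3 comparisons and 0 at an unadjusted p under 0.05, and their median log2 fold change with paclitaxel was -0.09. Of 9 epithelial markers 1, Krt8, was lower with paclitaxel by edgeR, and 0 passed by edgeR with MBQ-167 or the combination. DESeq2 called 2 in each of the 3 comparisons. Their median log2 fold changes were -0.76 with MBQ-167, -0.66 with paclitaxel and -0.66 with the combination, with 7, 8 and 7 of the 9 below 0. Vehicle library 3 had the highest epithelial sum, at 3239 CPM against 2185 and 1077 in the other vehicle libraries. The part of these cell types in the values of the protease and inhibitor genes was not tested.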

How the data were processed

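The 12 tumour libraries were made from polyA RNA. The deposited values are whole-number counts per gene, made by the authors with HISAT2, HTSeq and GRCm38, per the submitters' processing notes, which also name DESeq2. For versions, annotation and strandedness the sources used here give nothing. Gene positions, biotypes and GC came from GENCODE vM21 for 45229 matched identifiers.

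Genes were kept by filterByExpr (minimum count 10; 18252 genes). All 12 libraries entered 1 fit by edgeR 4.0.16 in R 4.3.3 (quasi-likelihood, TMM scaling; biological coefficient of variation 0.214). Each test was adjusted by Benjamini-Hochberg over all genes, with a threshold of 0.05; CPM are TMM-scaled counts, n is 3 per group, and a zero count allows up to 3 counts of a library, for counting error only. Alternatives were DESeq2 1.42.0, limma 3.58.1 voom, RLE size factors, 2 other filters, protein-coding genes only, a GC offset (spline with 5 degrees of freedom), only the groups compared, a replicate block and each library left out. The edgeR fit was tried on simulated counts with 200 genes changed in the MBQ-167 group, for MBQ-167 against vehicle only. The other comparisons and the alternatives were not tried this way.

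The genes and gene lists were chosen with earlier results of these data known. Described in full were genes past the threshold in any test, the 3 smallest p-values of each test, all Timp genes and the 6 highest levels per length; from the other lists, at most 4 genes per list that passed. Single values of other genes were chosen after they were seen.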

Additional observations from a re-analysis of the deposited data

How the results depend on the processing

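No result changed direction under an alternative. With paclitaxel against vehicle 6 genes passed, and the same 6 under RLE size factors, the stricter filter of 1 CPM in 3 libraries, protein-coding genes only, DESeq2, limma voom and the replicate block; with no filter on low counts there were 9. The number was 2 with the GC offset, 1 when only the groups compared were fitted and 1 to 6 when a library was left out. With MBQ-167 against vehicle it was 0 in the main analysis, 2 with no filter, 1 by DESeq2 and 0 to 1 without a library. With the combination against vehicle it was 0, 3 with no filter, 4 by DESeq2 and 0 to 2 without a library. For the interaction it was 0, 3 with no filter, 3 by DESeq2 and 0 without any library, and for any difference it was 0, 6, 6 and 0 to 2. Over all genes the paclitaxel count was 1033 in the main analysis, 1554 with no filter, 422 with the GC offset, 251 with only the groups compared, 1733 by DESeq2 and 230 to 1139 without a library. The combination count was 336, and 849, 75, 7, 916 and 29 to 416 in the same order. The MBQ-167 count was 17, with 392 with no filter, 5 with only the groups compared, 329 by DESeq2 and 5 to 42 without a library. The interaction count was 11, with 197, 147 (DESeq2) and 2 to 16, and the count for any difference was 251, with 1145, 63 (GC offset), 1220 (DESeq2) and 72 to 268. Causes of these shifts were not tested. The labels state no pairing by replicate number, and pairing was not tested. Among 18 same-numbered pairs of libraries from different groups the correlation of deviations ran from -0.175 to 0.252, and 6 exceeded 0.1. Their median was 0.0175, against -0.036 for other-numbered pairs, and 6 of 12 libraries correlated best with their own number. With the number as a block 6 genes passed with paclitaxel and 0 in every other test. Depth limits the 11 untested genes and Adamts17 and Adamts20, which passed the filter with 91 and 62 counts in all.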

Other observations

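Single libraries held the extremes of these genes unevenly. Vehicle library 3 had the highest CPM of the 12 for 10 of the 32 tested genes, beside 13% of all genes tested for which it was the highest. The 10 were Timp3, Adamts1, Adamts2, Adamts12, Adamts16, Mmp2, Mmp3, Mmp19, Mmp23 and Mmp25. Combination library 3 was the highest for 5 (Adamts4, Adamts6, Adamts15, Mmp15 and Mmp17), beside 6.42% of all genes tested. Paclitaxel library 3 was the lowest for 7, beside 6.05%.

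Mmp28 (epilysin), an MMP of epithelia, differed more within the vehicle group than between groups. Its CPM values were 1.81, 13.05 and 1.89 in vehicle libraries 1 to 3 and 2.05 to 8.09 in the 9 drug libraries. Adamts20 ranged from 0 to 1.11 CPM in the paclitaxel libraries alone, and its log2 fold change with paclitaxel had an SE of 1.38.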
